A study of Drosophila melanogaster with 12 samples.

Results

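Gene expression in libraries labelled svb RNAi was set against that in control libraries, all made from RNA of intestinal stem cells sorted from the posterior midgut (regions R3 to R5) of adult Drosophila melanogaster females. The comparison takes 6 of the 12 libraries of the series, 3 in each group, chosen by their labels. The cells labelled svb RNAi had 1 copy each of esg-Gal4 with UAS-GFP (over +) and tubGal80TS over UAS-SvbRNAi. SvbACT cells carried UAS-SvbACT::GFP and SvbREP cells UAS-Svb3Kmut::GFP in place of the RNAi transgene. These groups, with 3 libraries each, express forms of Svb under the same driver and serve only as further points of comparison. Control cells had the same driver and tubGal80TS over +, after a cross to Canton-S, and so share the driver but no Svb transgene. All flies were virgin females that had aged for 3 days before 6 days at 29 °C, which inactivates the temperature-sensitive Gal80 and so releases Gal4, and they were 9 days old at dissection. Batches of more than 20 females were pooled for each sort. The esg-Gal4 driver is known to be active in stem cells and in their enteroblast daughters, so a sort by its GFP takes both. The RNAi cross and the Canton-S cross also differ in the genome that each parent line brings, and that difference and the transgene cannot be told apart here.

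Shavenbaby (Svb) is a zinc finger transcription factor made from the ovo locus. In the embryonic epidermis it is known for switching on the genes that shape trichomes, and small peptides convert it from a long repressor form to a shorter activator form. Stem cells of the adult midgut divide to renew themselves and to give enteroblasts, which become absorptive enterocytes, while other daughters become hormone-secreting enteroendocrine cells. Division is driven by cytokines of the JAK/STAT pathway, by ligands of the epidermal growth factor receptor and by other signals, and Notch directs the fate of the daughters.

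Total counts ran from 4298998 to 5518895 in the RNAi-labelled libraries and from 5557969 to 6575392 in control. The floor of 3 counts corresponded to between 0.483 and 0.661 CPM (counts scaled to library size) in these 6 libraries, and it covers counting error only. Per the series' design text, the replicates were biological and came from different days. The progenitor gene esg, a snail-family factor that keeps cells undifferentiated, had 2288, 1761 and 2093 CPM in the libraries labelled svb RNAi and 2172, 1873 and 2039 CPM in control. hdc, the progenitor marker with the highest level per kilobase of exon among those with an exon length in the annotation used, which esg is not, was abundant in all 6 as well. Positions below are on dm6.

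The targeted gene did not fall. ovo (FBgn0003028, chromosome X, 5048273 to 5070929, plus strand) received 225, 206 and 209 counts in the libraries labelled svb RNAi, against 4, 64 and 3 in control, or 49.6, 36.8 and 37.1 CPM across RNAi-labelled replicates, compared with 0.746, 11.5 and 0.483 CPM across control replicates. Every RNAi-labelled library was above every control library, and 2 of the 3 control libraries were within 1 count of the floor (log2 fold change 3.29, SE 0.522, edgeR adjusted p = 0.000241). Control replicate 2 was the control library with most ovo counts, and without it the log2 fold change was 6.01. In SvbACT the gene had 2058, 2268 and 2084 CPM and in SvbREP 2086, 2175 and 2213 CPM. lncRNA:CR44833, a noncoding transcript whose span overlaps ovo on the other strand, was higher as well, with 27.3, 43.1 and 40.4 CPM in svb RNAi replicates 1 to 3 and 3.17, 1.97 and 2.73 CPM in control replicates 1 to 3. Its lowest RNAi-labelled library was above its highest control library (log2 fold change 3.81, SE 0.444, edgeR adjusted p = 1.21e-05). The mean of lncRNA:CR44833 was 2.93 CPM in SvbACT and 54.5 CPM in SvbREP, and its difference from SvbREP did not pass the test (edgeR adjusted p = 0.313). Gene totals do not separate the endogenous message from other reads at the locus, and the strand used in counting is not given in the sources used here. The ovo counts thus go against the label, they give no measure of a knockdown, and every direction reported here rests on the label alone.

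**Figure D1:**
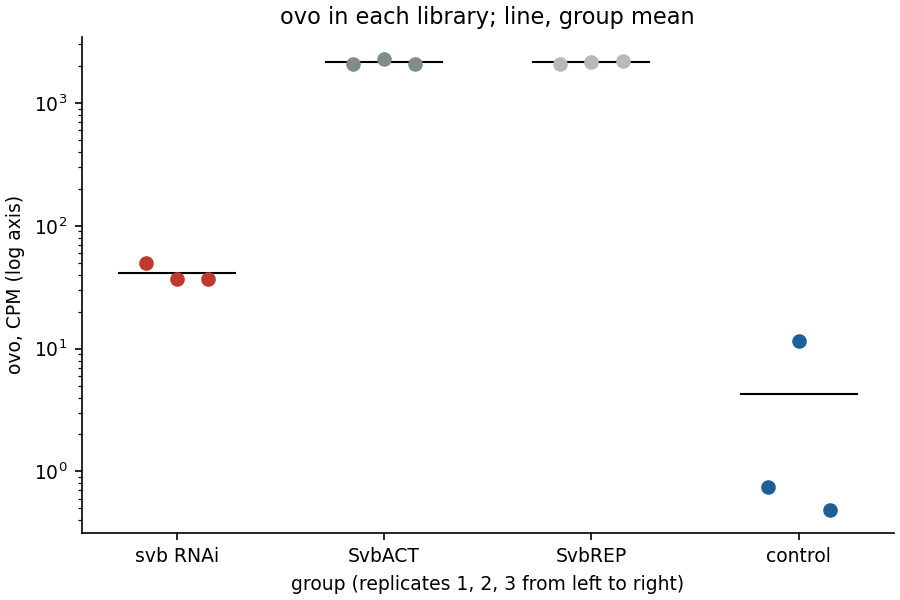
CPM of ovo (vertical, log axis) in each library of the 4 groups, with points for replicates 1 to 3 from left to right and a line at the group mean. The RNAi-labelled libraries lie at 36.8 to 49.6 CPM, above all 3 control libraries at 0.483 to 11.5 CPM and far under the overexpression groups.

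Of 7992 genes tested, 539 were higher in the libraries labelled svb RNAi (6.74%) and 1094 were lower (13.7%), 20.4% in all at an edgeR adjusted p under 0.05. The falls were also larger, since 582 of the lower genes but only 101 of the higher genes changed by more than 2-fold. The median log2 fold change over all genes tested was 0.02. Against SvbACT 17.4% of genes differed from the RNAi-labelled libraries, and against SvbREP 22.8% did. In 174 genes (2.18%) the RNAi-labelled libraries were higher than in each of SvbACT, SvbREP and control, and in 572 genes (7.16%) they were lower than in each. These 3 comparisons share the RNAi-labelled libraries, so they are not independent of one another. The count of higher genes depended on single libraries: it was 357 without control replicate 1, 269 without control replicate 3, 340 without svb RNAi replicate 2 and 318 without svb RNAi replicate 3. The count of lower genes stayed between 899 and 1052 when each library was left out in turn.

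Calls were spread unevenly over the gene lists, whose members were chosen with earlier results of these data known. Among lists with 10 or more tested members, those that fell most often, against the 13.7% of all genes that were lower, were lipid synthesis and storage (11 of 17 tested members), UDP-glycosyltransferases (9 of 15), the actin cytoskeleton (19 of 37), progenitor markers (7 of 14) and JNK signalling (9 of 19). No member of these 5 lists was called higher by edgeR. At an unadjusted p under 0.05, 1 UDP-glycosyltransferase and 1 progenitor marker were higher and no member of the other lists was, and DESeq2 called 1 UDP-glycosyltransferase higher and no other member. Those that rose most often, against the 6.74% of all genes that were higher, were ribosome biogenesis (11 of 26), the Polycomb group (8 of 21) and mitosis (13 of 43).

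**Figure D2:**
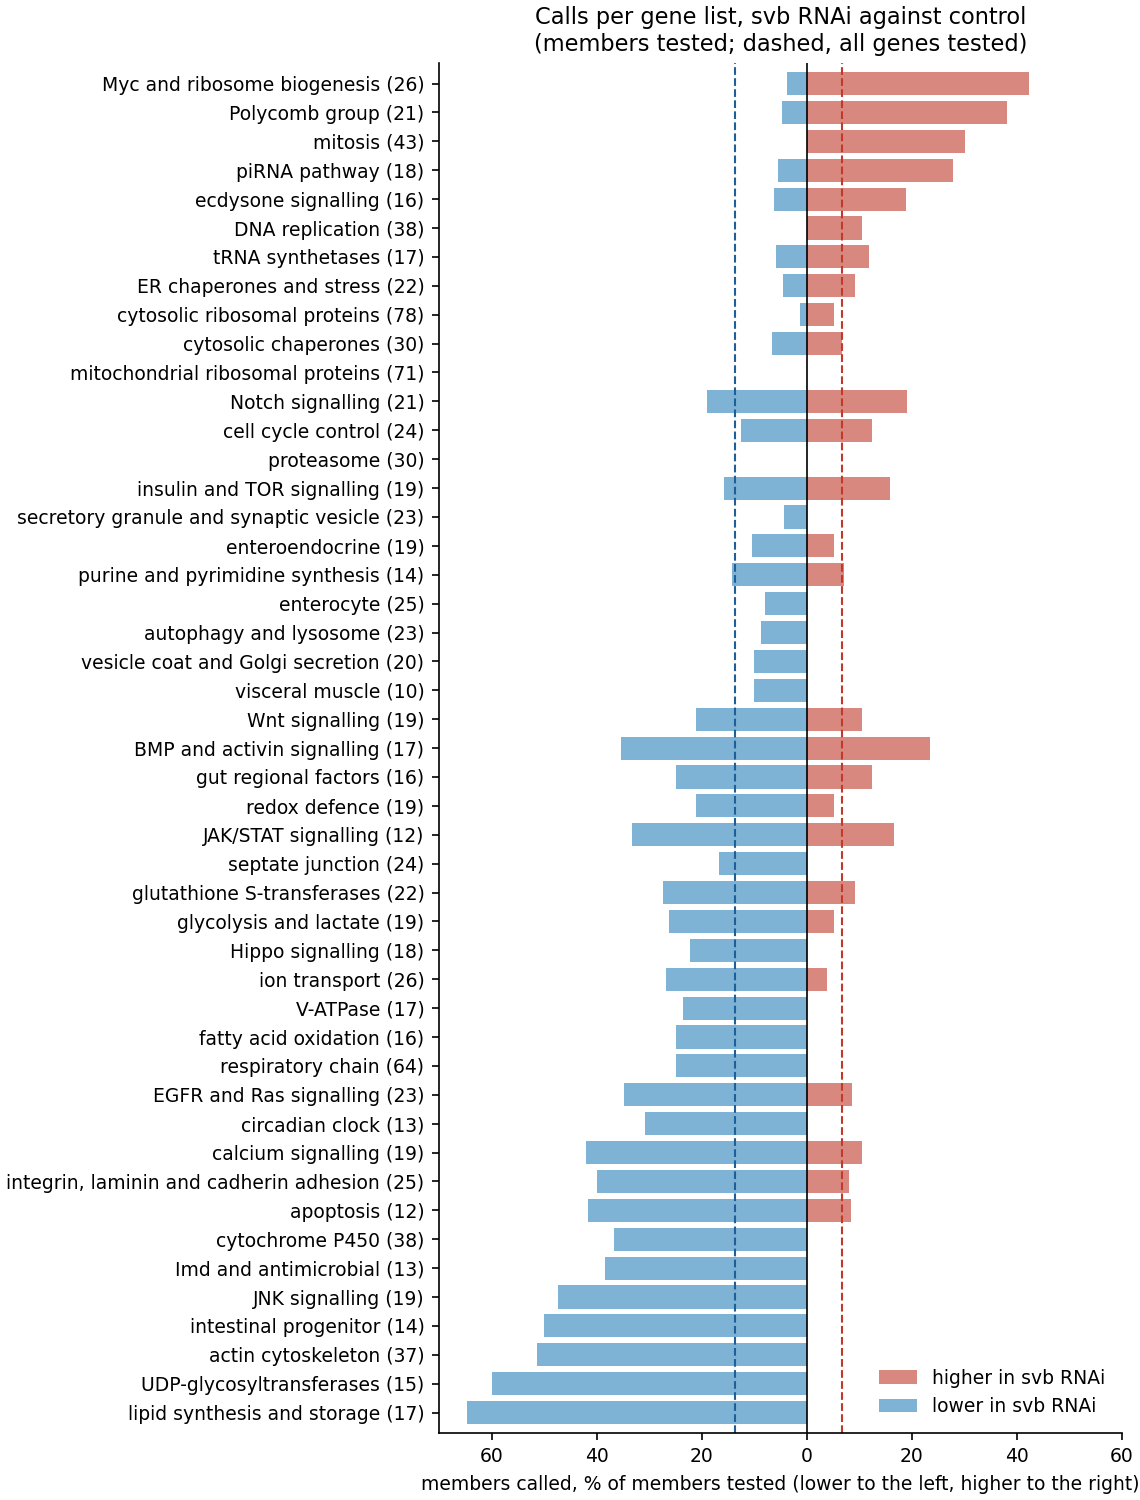
Share of the tested members of each gene list that were called lower (left, blue) or higher (right, red) in the libraries labelled svb RNAi, in percent, for the lists with 10 or more tested members. Dashed lines mark the shares over all genes tested, 13.7% lower and 6.74% higher, and the number of tested members stands after each list's name.

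Progenitor markers were lower or did not pass the test. Of the 14 measured markers, 7 were called lower and none was called higher, and the median log2 fold change was -0.53. The log2 fold change was below 0 in 10 markers and above 0 in 4. Every RNAi-labelled library was below every control library in 8 markers and above every control library in 2, which were not called. The share of all genes with libraries apart in this way was not counted, so these 2 counts have no background. Their summed level was 14499 to 16812 CPM in the libraries labelled svb RNAi, against 19033 to 21859 CPM in control. In bulk samples, fewer cells of a type and less RNA per cell cannot be told apart. Sox100B, a SOX factor of stem cells and enteroblasts, had 278, 257 and 243 CPM in the RNAi-labelled libraries, against 517, 550.2 and 530.5 CPM in control. The groups were far apart, and the RNAi-labelled level was 2.05-fold lower (log2 fold change -1.04, SE 0.119, edgeR adjusted p = 1.05e-05). Dl, the Notch ligand that marks stem cells, had 480.3, 503 and 616 CPM in the libraries labelled svb RNAi and 1048, 859 and 967 CPM in control. All RNAi-labelled libraries were below all control libraries (log2 fold change -0.84, SE 0.172, edgeR adjusted p = 0.00210). Stat92E, the transcription factor of the JAK/STAT pathway, had 706, 649 and 783 CPM across RNAi-labelled replicates, compared with 1278, 1254 and 1384 CPM across control replicates, again with no overlap (log2 fold change -0.87, SE 0.112, edgeR adjusted p = 3.23e-05). Egfr, the epidermal growth factor receptor, had 1423, 1326 and 1519 CPM in svb RNAi replicates 1 to 3 and 2426, 2411 and 2409 CPM in control replicates 1 to 3 (log2 fold change -0.76, SE 0.101, edgeR adjusted p = 4.30e-05). The zinc finger genes zfh2 and klu, the second of which marks enteroblasts, had log2 fold changes of -0.72 (edgeR adjusted p = 0.00840) and -0.57 (edgeR adjusted p = 0.00331). Sox21a, a SOX factor needed for enteroblasts to differentiate, had a log2 fold change of -0.49 (edgeR adjusted p = 0.0335), and the call was lost without svb RNAi replicate 1 (adjusted p = 0.0654), 2 (0.0620) or 3 (0.104) and without control replicate 2 (0.0739) or 3 (0.0709).

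The other 7 markers did not pass the test. For esg, whose groups overlapped, the difference was near 0 (log2 fold change 0.01, SE 0.115, edgeR adjusted p = 0.961). hdc (headcase) had 5314, 4983 and 5664 CPM in the RNAi-labelled libraries, against 7025, 5561 and 7059 CPM in control, with overlap between svb RNAi replicate 3 and control replicate 2 (log2 fold change -0.30, SE 0.132, edgeR adjusted p = 0.132).

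For enteroendocrine cells, 1 of 19 tested markers was higher and 2 were lower (10.5%, against 13.7% of all genes), and the summed level of the list was 2104 to 3358 CPM in the libraries labelled svb RNAi and 1753 to 2602 CPM in control. pros, the homeodomain factor that defines these cells, had 111, 55.6 and 24.8 CPM in the libraries labelled svb RNAi and 39.9, 115 and 25.7 CPM in control. Its highest library was replicate 1 in the RNAi-labelled group and replicate 2 in control, so the groups overlapped (log2 fold change 0.07, SE 0.621, edgeR adjusted p = 0.961). The neuropeptide gene NPF, with the highest level per kilobase of the list, showed the same pair of high libraries, with 425, 144 and 106 CPM across RNAi-labelled replicates, compared with 158, 339 and 109.7 CPM across control replicates (log2 fold change 0.15, SE 0.562, edgeR adjusted p = 0.897). Genes of peptide hormones differed in direction. Tk, which encodes tachykinins, had 7.94, 3.04 and 1.95 CPM in svb RNAi replicates 1 to 3 and 29.9, 65.2 and 37.5 CPM in control replicates 1 to 3. Every RNAi-labelled library was below every control library (log2 fold change -3.40, SE 0.645, edgeR adjusted p = 0.00118), while pros did not pass the test in the same libraries. svb RNAi replicate 1 had the most Tk of its group, and without it the log2 fold change was -4.15. The span of Tk overlaps Ect3. Mip, a myoinhibiting peptide gene, had 0 counts in all 3 RNAi-labelled libraries and 2.43, 14.5 and 6.59 CPM in control. Measured against the floor of 3 counts per library Mip stood at least 13.6-fold below control (edgeR adjusted p = 0.00182). Control replicate 2 was the highest, and without it the gene stood at least 7.82-fold below it. ITP, a gene for ion transport peptides, was slightly higher, with 435, 438 and 442 CPM in the RNAi-labelled libraries, against 346, 319.6 and 309 CPM in control (log2 fold change 0.43, SE 0.0984, edgeR adjusted p = 0.00481). Orcokinin, another peptide hormone gene, had 271, 142 and 96.6 CPM in the libraries labelled svb RNAi and 14.9, 91.7 and 4.83 CPM in control. Its groups did not overlap, but it did not pass the test (log2 fold change 2.19, SE 1.16, edgeR adjusted p = 0.228), except without control replicate 2 (adjusted p = 0.0493). The count of higher markers was 2 without control replicate 2.

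Of the 25 enterocyte markers tested, 2 were lower (8.00%, against 13.7% of all genes) and none was higher by edgeR or DESeq2, with 3 higher at an unadjusted p under 0.05. Myo31DF, an unconventional myosin and the marker with the highest level per kilobase, had 161, 202 and 208 CPM across RNAi-labelled replicates, compared with 372, 415 and 395 CPM across control replicates. The groups did not overlap (log2 fold change -1.05, SE 0.137, edgeR adjusted p = 3.97e-05). Its relative Myo61F, another brush border myosin, was not called, with 96.1, 119.9 and 90.9 CPM in svb RNAi replicates 1 to 3 and 33.4, 90.8 and 48.9 CPM in control replicates 1 to 3 (log2 fold change 0.83, SE 0.326, edgeR adjusted p = 0.0921). The lipase gene mag had 10.6, 23.1 and 18.8 CPM in the RNAi-labelled libraries, against 5.60, 143 and 89.6 CPM in control, lowest in control replicate 1. It was called (log2 fold change -2.18, edgeR adjusted p = 0.0391) although the groups overlapped. The call was lost under DESeq2 (adjusted p = 0.0782) and in the edgeR fit of the 6 libraries alone (adjusted p = 0.0814). Of the fits without 1 library, it held only without control replicate 1, with edgeR adjusted p = 0.183 and log2 fold change -1.46 without control replicate 2, 0.100 without control replicate 3 and 0.132, 0.0709 and 0.0963 without svb RNAi replicates 1, 2 and 3. The count of lower enterocyte markers was 1 without control replicate 2 or 3 or svb RNAi replicate 1 or 2 and 5 without control replicate 1, and that of higher ones was 4 without control replicate 2. The summed level of the list was 686 to 898 CPM in the libraries labelled svb RNAi and 499 to 1453 CPM in control.

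Markers of tissues around the gut epithelium were measured at low summed levels, apart from the muscle and neuron lists. The visceral muscle list summed to 532 to 653 CPM in the libraries labelled svb RNAi and 1225 to 1430.0 CPM in control, and nearly all of that was Tm1, a tropomyosin gene, with 502, 538 and 622 CPM in the libraries labelled svb RNAi and 1386, 1177 and 1382 CPM in control (log2 fold change -1.25, SE 0.131, edgeR adjusted p = 3.90e-06). Mhc, the muscle myosin heavy chain, had 5.07, 11.4 and 4.61 CPM across RNAi-labelled replicates, compared with 8.77, 7.53 and 11.4 CPM across control replicates, so the groups overlapped, and the troponin gene TpnC73F was at 0 in all 6 libraries. The hemocyte list summed to 31.4 to 53.8 CPM in the RNAi-labelled libraries and 74.7 to 87.2 CPM in control, and its defining gene Hml had 1 count in svb RNAi replicate 1 and 0 elsewhere. The neuron list summed to 226 to 322 CPM in the RNAi-labelled libraries and 344 to 373 CPM in control. Its largest part was elav, with 168, 143 and 173 CPM in the RNAi-labelled libraries and 229, 193 and 218 CPM in control. elav was not called (edgeR adjusted p = 0.111), and ChAT of the same list had no more than 3.31 CPM in any of the 6 libraries. The fat body, tracheal, germline and tubule and hindgut lists each summed to no more than 29.5 CPM in the RNAi-labelled libraries and 15.1 CPM in control. By edgeR, 1 of 10 tested muscle markers, 1 of 4 hemocyte markers, 1 of 7 neuron markers, 1 of 1 tubule and hindgut markers and 1 of 2 germline markers were lower, against 13.7% of all genes, and none was higher. These were Tm1, ush, Syb, NtR and exu. The fat body and tracheal lists had no call. DESeq2 called 1 neuron marker higher and 1 fat body marker lower, and 1 tracheal and 1 neuron marker were higher and 1 fat body marker lower at an unadjusted p under 0.05. Hemocyte markers lower numbered 2 without svb RNAi replicate 1, neuron markers higher 1 without svb RNAi replicate 3 and fat body markers lower 1 without control replicate 3. The part that such cells have in the results that follow was not tested.

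**Figure D3:**
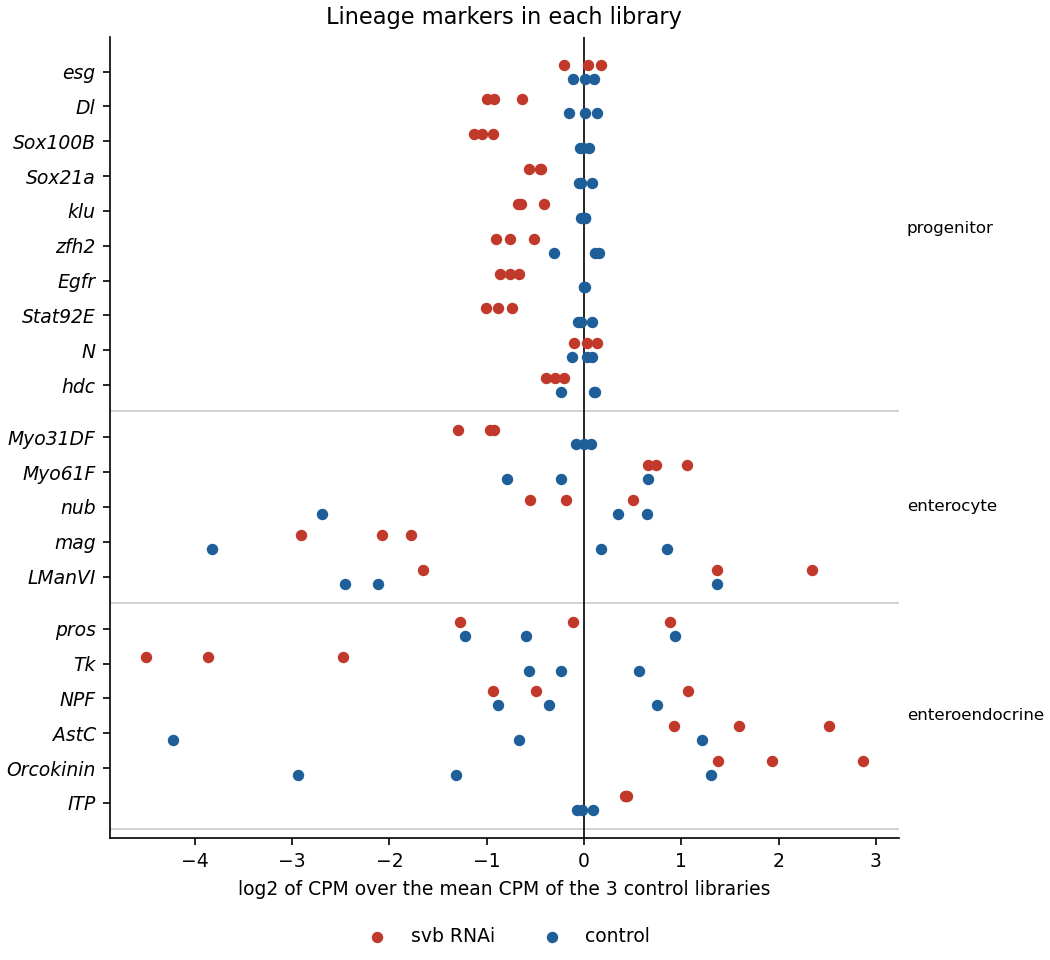
Level of lineage markers in each library, as the log2 of its CPM over the mean CPM of the 3 control libraries (horizontal), with the libraries labelled svb RNAi in red above control in blue. Progenitor markers from Dl to Stat92E lie left of all control points, while esg, N, pros and NPF overlap control.

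Lipid synthesis and storage showed the most frequent fall of any list with 10 or more tested members. Of 17 members tested, 11 were lower and none was higher by edgeR, DESeq2 or at an unadjusted p under 0.05, with a median log2 fold change of -0.94, and 8 of the 11 were lower than in SvbACT and SvbREP as well. SREBP (FBgn0261283, chromosome 3L, 19793935 to 19798979, plus strand), the transcription factor that switches on fatty acid synthesis, had 49.2, 54.3 and 46.6 CPM in svb RNAi replicates 1 to 3 and 411, 547 and 451 CPM in control replicates 1 to 3. The RNAi-labelled level was 9.38-fold lower, far outside the spread of either group (log2 fold change -3.23, SE 0.136, edgeR adjusted p = 4.58e-10). The enzymes of fatty acid synthesis fell with it. FASN1, the fatty acid synthase, had 106, 169 and 165 CPM in the RNAi-labelled libraries, against 481, 879 and 526 CPM in control, with no overlap (log2 fold change -2.10, SE 0.232, edgeR adjusted p = 6.78e-06). ATPCL, which makes cytosolic acetyl-CoA from citrate, had 98.1, 127 and 126 CPM in the libraries labelled svb RNAi and 271, 422 and 351 CPM in control (log2 fold change -1.57, SE 0.172, edgeR adjusted p = 6.04e-06). ACC, which makes the malonyl-CoA for chain growth, was lower, with a log2 fold change of -1.35 (edgeR adjusted p = 1.20e-06). LpR2, a lipophorin receptor that takes up lipid, had 3.09, 3.04 and 9.75 CPM across RNAi-labelled replicates, compared with 49.6, 76.1 and 52.1 CPM across control replicates. Its svb RNAi replicate 3 was the highest of its group and still far below control (log2 fold change -3.45, SE 0.315, edgeR adjusted p = 9.65e-07), and without it the log2 fold change was -4.28. bmm, the lipase that breaks down stored triglyceride, was lower as well, with a log2 fold change of -1.56 (edgeR adjusted p = 9.58e-06). Hnf4, a nuclear receptor for lipid use, had 116, 103 and 115 CPM in svb RNAi replicates 1 to 3 and 277, 258 and 262 CPM in control replicates 1 to 3 (log2 fold change -1.26, SE 0.134, edgeR adjusted p = 4.75e-06). In fatty acid oxidation 4 of 16 members were lower, among them whd, the carnitine palmitoyltransferase, with a log2 fold change of -0.95 (edgeR adjusted p = 3.36e-05). The acyl-CoA synthetase gene Acsl had 131, 148 and 151 CPM in the RNAi-labelled libraries, against 254, 319 and 289.5 CPM in control (SE 0.120 on the log2 scale, edgeR adjusted p = 1.60e-05).

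Genes of stress signalling through the kinase JNK were often lower. Of 19 members tested, 9 were lower and none was higher by edgeR, DESeq2 or at an unadjusted p under 0.05, and the median log2 fold change was -0.48. The largest change was in Mmp1 (FBgn0035049, chromosome 2R, 24671294 to 24688184, minus strand), a secreted matrix metalloproteinase and known JNK target, with 16.8, 10.4 and 14.7 CPM in the libraries labelled svb RNAi and 159, 154 and 200.4 CPM in control. All 3 RNAi-labelled libraries were far below the lowest control library (log2 fold change -3.62, SE 0.275, edgeR adjusted p = 1.26e-07). Gadd45, a stress-induced gene, had 24.5, 34.5 and 37.8 CPM across RNAi-labelled replicates, compared with 153, 162 and 157 CPM across control replicates, with no overlap (log2 fold change -2.28, SE 0.161, edgeR adjusted p = 6.10e-08). Within the pathway, the kinase gene msn, which acts upstream, had a log2 fold change of -1.05 (edgeR adjusted p = 2.75e-06). kay, the Fos subunit of the AP-1 transcription factor, had a log2 fold change of -1.15 (edgeR adjusted p = 1.08e-06). puc, the phosphatase that JNK switches on and that limits it, had 381, 421 and 468 CPM in svb RNAi replicates 1 to 3 and 823, 764 and 891 CPM in control replicates 1 to 3 (log2 fold change -0.96, SE 0.112, edgeR adjusted p = 1.16e-05). egr, the TNF ligand, was lower at a log2 fold change of -0.69 (edgeR adjusted p = 0.00113), while the kinase gene bsk was not called, with 19.2, 23.4 and 24.8 CPM in the RNAi-labelled libraries, against 27.6, 25.4 and 41.2 CPM in control (log2 fold change -0.48, SE 0.224, edgeR adjusted p = 0.157). In the apoptosis list 5 of 12 members were lower (41.7%, against 13.7% of all genes) and 1 was higher (8.33%, against 6.74%). The median log2 fold change was -0.63, and 1 wrongly matched gene had been taken out of this list after the counts were read. hid, which triggers caspases by blocking their inhibitor, had 3.97, 5.36 and 9.22 CPM in the libraries labelled svb RNAi and 45.5, 33.5 and 38.0 CPM in control (log2 fold change -2.64, SE 0.352, edgeR adjusted p = 4.64e-05). All 3 RNAi-labelled libraries of hid lay below control. The caspase genes Strica and Dronc had log2 fold changes of -3.01 (edgeR adjusted p = 4.73e-08) and -1.31 (edgeR adjusted p = 3.35e-05), Dark, the partner of Dronc, had -0.78 (edgeR adjusted p = 0.00513), and the caspase inhibitor Diap1 had -0.70 (edgeR adjusted p = 0.000130). Bruce, another inhibitor of cell death, was higher at a log2 fold change of 0.58 (edgeR adjusted p = 0.000918).

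In JAK/STAT signalling, 4 of 12 members were lower (33.3%, against 13.7% of all genes) and 2 were higher (16.7%, against 6.74%). The cytokine gene upd3, known for driving stem cell division after damage, had 3.09, 3.93 and 5.32 CPM across RNAi-labelled replicates, compared with 45.3, 66.7 and 48.6 CPM across control replicates. Its RNAi-labelled libraries lay far below control (log2 fold change -3.68, SE 0.334, edgeR adjusted p = 9.23e-07). upd2, a related cytokine, had 3.53, 7.33 and 4.43 CPM in svb RNAi replicates 1 to 3 and 55.6, 61.8 and 64.3 CPM in control replicates 1 to 3 (log2 fold change -3.55, SE 0.408, edgeR adjusted p = 1.05e-05). Socs36E, a target and inhibitor of the pathway, fell less, with a log2 fold change of -0.55 (edgeR adjusted p = 0.00381). The higher members were hop, the Janus kinase, at a log2 fold change of 0.66 (edgeR adjusted p = 0.00594) and chinmo, a zinc finger target, which had 12.3, 16.4 and 14.4 CPM in the RNAi-labelled libraries, against 1.49, 0.538 and 1.93 CPM in control (log2 fold change 3.41, SE 0.507, edgeR adjusted p = 0.000128).

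In EGFR and Ras signalling, 8 of 23 members were lower (34.8%, against 13.7% of all genes) and 2 were higher (8.70%, against 6.74%). The ligand gene vn had 11.5, 28.4 and 17.7 CPM in the libraries labelled svb RNAi and 36.6, 95.3 and 52.6 CPM in control, and its groups did not overlap (log2 fold change -1.67, SE 0.401, edgeR adjusted p = 0.00699). Ets21C, an ETS factor of stressed progenitors, had 8.16, 14.7 and 9.93 CPM across RNAi-labelled replicates, compared with 62.5, 138 and 85.4 CPM across control replicates (log2 fold change -3.11, SE 0.427, edgeR adjusted p = 6.01e-05). All of its RNAi-labelled libraries lay far below control. Inhibitors of the pathway moved apart. aos, a secreted inhibitor, was lower at a log2 fold change of -0.77 (edgeR adjusted p = 0.000190), while sty (sprouty), an inhibitor inside the cell, was higher, with 3431, 2742 and 3835 CPM in svb RNAi replicates 1 to 3 and 1752, 1566 and 1846 CPM in control replicates 1 to 3 (log2 fold change 0.95, SE 0.138, edgeR adjusted p = 9.44e-05). aop, an ETS repressor, was lower at a log2 fold change of -1.10 (edgeR adjusted p = 9.65e-06). The count of higher members was 1 without control replicate 1 or svb RNAi replicate 2. Both Drosophila ligands of the FGF receptor Heartless were far lower. ths had 0.220, 0.179 and 0.886 CPM in the RNAi-labelled libraries, against 20.9, 21.1 and 22.2 CPM in control. pyr had 2.65, 2.86 and 0.886 CPM in the libraries labelled svb RNAi and 60.1, 29.9 and 47.6 CPM in control. No RNAi-labelled library came near the lowest control library for either gene, with -5.52 for ths (edgeR adjusted p = 1.73e-07) and -4.43 for pyr (edgeR adjusted p = 9.85e-07) on the log2 scale. For ths the value was -6.60 without svb RNAi replicate 3.

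Notch, BMP, Wnt and Hippo signalling showed calls in both directions or few. Lower shares were 19.0% (Notch), 35.3% (BMP and activin), 21.1% (Wnt) and 22.2% (Hippo), against 13.7% of all genes. Higher shares were 19.0% (Notch), 23.5% (BMP and activin) and 10.5% (Wnt), against 6.74% of all genes. In the Notch list 4 of 21 were lower and 4 higher, and the count of higher members was 1 without control replicate 2 or 3 or svb RNAi replicate 1 or 3. The groups were apart for the genes named here. fng, a glycosyltransferase that tunes Notch to its ligands, had 23.4, 26.6 and 22.0 CPM across RNAi-labelled replicates, compared with 141, 161 and 166 CPM across control replicates (log2 fold change -2.70, SE 0.203, edgeR adjusted p = 1.20e-07). O-fut1, which adds the fucose that fng extends, moved the other way, with 19.2, 27.3 and 23.2 CPM in svb RNAi replicates 1 to 3 and 8.40, 7.88 and 5.79 CPM in control replicates 1 to 3 (log2 fold change 1.66, SE 0.266, edgeR adjusted p = 0.000264). The metalloprotease gene kuz, which cleaves the receptor, was lower at a log2 fold change of -0.70 (edgeR adjusted p = 0.000329). In the BMP and activin list 6 of 17 were lower and 4 higher. Mad, the transcription factor of the pathway, had 300.0, 274 and 313 CPM in the RNAi-labelled libraries, against 781, 665 and 743 CPM in control (log2 fold change -1.30, SE 0.150, edgeR adjusted p = 1.04e-05), and its inhibitor and target Dad was 1.99-fold lower (edgeR adjusted p = 0.00480). babo, the activin receptor gene, was higher at a log2 fold change of 0.42 (edgeR adjusted p = 0.00349), and the count of higher members was 2 without control replicate 3 or svb RNAi replicate 2. In the Wnt list 4 of 19 were lower and 2 higher. The Wnt receptor gene fz had 6.83, 3.22 and 4.08 CPM in the libraries labelled svb RNAi and 21.5, 23.1 and 27.7 CPM in control (log2 fold change -2.37, SE 0.367, edgeR adjusted p = 0.000192), and Axn, of the complex that destroys the Wnt effector, was higher at a log2 fold change of 0.50 (edgeR adjusted p = 0.00229). Higher members numbered 1 without control replicate 1, 2 or 3 or svb RNAi replicate 1 or 3. In Hippo signalling 4 of 18 were lower and none was higher by edgeR, DESeq2 or at an unadjusted p under 0.05, led by Diap1 and by app, a palmitoyltransferase, at a log2 fold change of -0.67 (edgeR adjusted p = 0.000178).

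Many genes of the actin cytoskeleton were lower. Of 37 members tested, 19 were lower and none was higher by edgeR, DESeq2 or at an unadjusted p under 0.05, with a median log2 fold change of -0.46. DAAM (FBgn0025641, chromosome X, 1289713 to 1322362, minus strand), a formin that builds unbranched filaments, had 23.8, 18.9 and 23.2 CPM across RNAi-labelled replicates, compared with 239, 238 and 260.3 CPM across control replicates. The level was 11.2-fold lower, with the 3 libraries of each group close together (log2 fold change -3.48, SE 0.147, edgeR adjusted p = 4.58e-10). capu, another formin, had 7.94, 8.04 and 8.86 CPM in svb RNAi replicates 1 to 3 and 46.5, 55.0 and 55.8 CPM in control replicates 1 to 3 (log2 fold change -2.66, SE 0.195, edgeR adjusted p = 8.97e-08). Act5C, the main cytoplasmic actin, had 1497, 1498 and 1517 CPM in the RNAi-labelled libraries, against 3542, 3105 and 3549.8 CPM in control, with no overlap (log2 fold change -1.18, SE 0.126, edgeR adjusted p = 4.99e-06). Reads of near-identical actin genes may be split among them. Arp2, a subunit of the Arp2/3 complex that branches filaments, was lower at a log2 fold change of -1.21 (edgeR adjusted p = 1.70e-06), and the capping protein gene cpa was at a log2 fold change of -1.51 (edgeR adjusted p = 3.96e-06). In the list of integrins, laminins and cadherins, 10 of 25 were lower (40.0%, against 13.7% of all genes) and 2 higher (8.00%, against 6.74%). Itgbn, a beta integrin of the gut, had 24.7, 27.5 and 35.1 CPM in the libraries labelled svb RNAi and 181, 171 and 194 CPM in control (log2 fold change -2.64, SE 0.149, edgeR adjusted p = 5.54e-09). The laminin genes LanB2 and wb were lower at a log2 fold change of -1.55 (edgeR adjusted p = 3.05e-07) and -1.26 (edgeR adjusted p = 1.04e-05), and mys, the main beta integrin, at a log2 fold change of -0.51 (edgeR adjusted p = 0.00156). Those called higher numbered 1 without control replicate 1, 2 or 3 or svb RNAi replicate 1, 2 or 3.

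**Figure D4:**
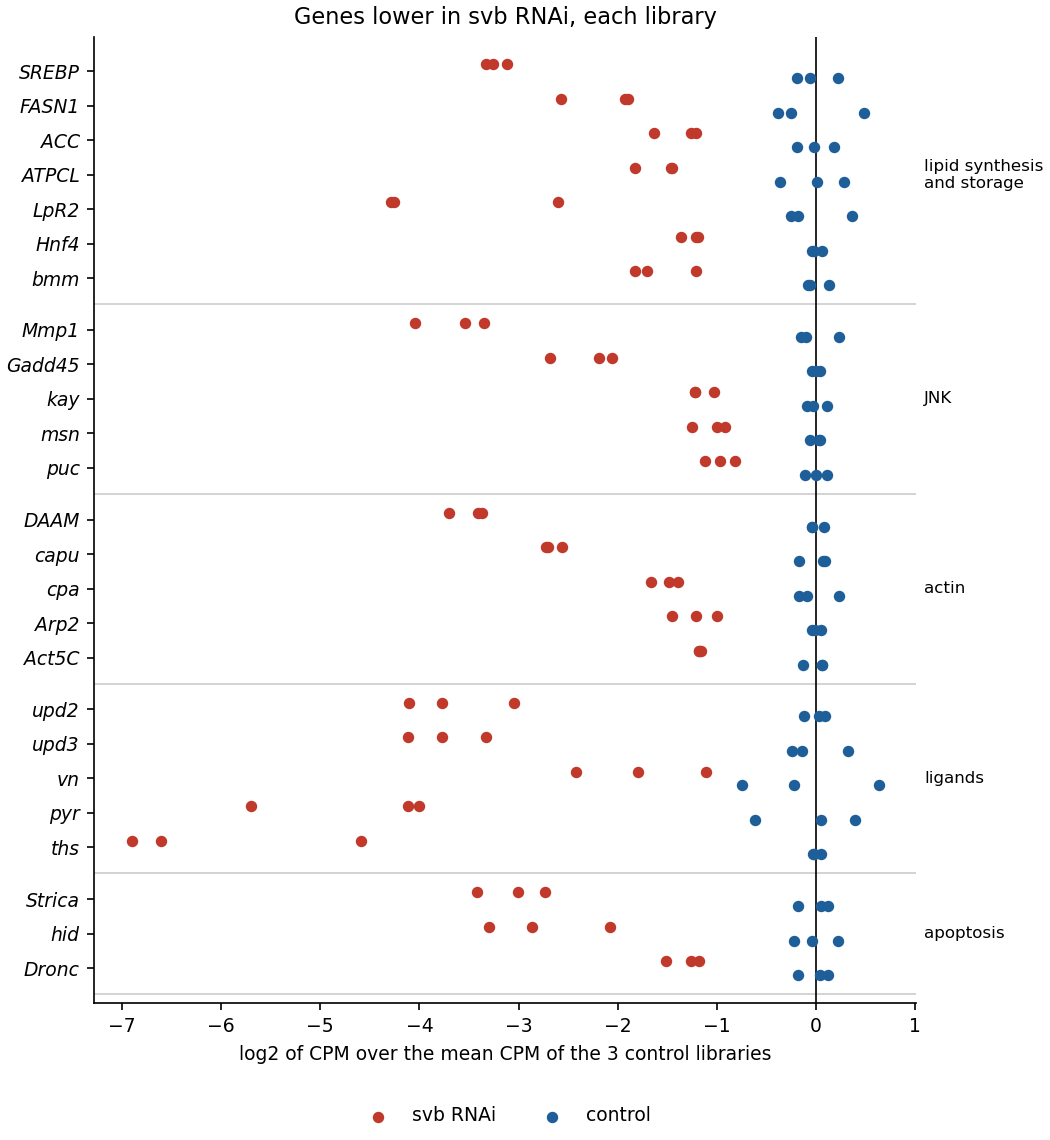
Level of genes called lower with the svb RNAi label, as the log2 of the CPM in each library over the mean CPM of the 3 control libraries (horizontal), with RNAi-labelled libraries in red above control in blue. In every gene plotted, the 3 red points lie left of the 3 blue points, from about 1 unit for puc to several units for ths.

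Enzymes that modify foreign compounds were lower in many cases. Of 38 cytochrome P450 genes tested, 14 were lower (36.8%, against 13.7% of all genes), with a median log2 fold change of -0.72. None was higher by edgeR or DESeq2 (1 at an unadjusted p under 0.05). Of 15 UDP-glycosyltransferases, 9 were lower (60.0%, against the same 13.7%), with a median of -0.83. UDP-glycosyltransferases called higher numbered 1 without svb RNAi replicate 2. Cyp6a17 held 3 counts in all RNAi-labelled libraries and 332 in control, a pooled ratio of 102 with an exact 95% counting interval of 34.5 to 496 (edgeR adjusted p = 3.01e-07). The RNAi-labelled counts were 3, 0 and 0 in replicates 1 to 3. Its neighbour in the same family, Cyp6a23, had 5.73, 8.94 and 6.03 CPM across RNAi-labelled replicates, compared with 52.1, 33.3 and 38.1 CPM across control replicates (log2 fold change -2.57, SE 0.298, edgeR adjusted p = 1.15e-05), and reads of such close copies may be split between them. The glycosyltransferase gene Ugt303B3 had 9.70, 6.26 and 7.09 CPM in svb RNAi replicates 1 to 3 and 96.8, 111 and 110.2 CPM in control replicates 1 to 3 (log2 fold change -3.80, SE 0.182, edgeR adjusted p = 1.30e-09). Glutathione S-transferases were mixed, with 6 of 22 lower (27.3%, against 13.7% of all genes) and 2 higher (9.09%, against 6.74%). GstO3 was at a log2 fold change of -1.46 (edgeR adjusted p = 8.02e-05) and GstD1 at a log2 fold change of 0.52 (edgeR adjusted p = 0.00160). The count of lower members was 3 without control replicate 1, and that of higher members was 1 without control replicate 1, 2 or 3 or svb RNAi replicate 1, 2 or 3.

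In the respiratory chain, of 64 genes tested, 16 were lower and none was higher by edgeR, DESeq2 or at an unadjusted p under 0.05, and the median log2 fold change was -0.24. ATPsyngamma, a stalk subunit of ATP synthase, had 65.0, 96.5 and 82.1 CPM in the RNAi-labelled libraries, against 168, 222 and 173 CPM in control (log2 fold change -1.21, SE 0.147, edgeR adjusted p = 1.82e-05), and ATPsynB, of the same enzyme, was 2.01-fold lower (edgeR adjusted p = 0.000122). All RNAi-labelled libraries were below control for ATPsyngamma. The count of lower members was 8 without control replicate 3 and 10 without svb RNAi replicate 1, 2 or 3. None of 71 mitochondrial ribosomal protein genes was called by edgeR or DESeq2, with 4 higher and 3 lower at an unadjusted p under 0.05 and a median of 0.03. Without control replicate 1 there was 1 higher. None of 30 proteasome genes was called by either tool, with 8 higher and 0 lower at an unadjusted p under 0.05 and a median of 0.24.

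Innate immune genes of the Imd pathway were lower in 5 of 13 cases (38.5%, against 13.7% of all genes). None was higher by edgeR, DESeq2 or at an unadjusted p under 0.05. Of 27 genes listed only these 13 were measured, and Rel, Duox and antimicrobial peptide genes such as AttA and DptA were not among them. The peptidoglycan receptor gene PGRP-LC had 125, 125 and 141 CPM in the libraries labelled svb RNAi and 316, 258 and 326 CPM in control (log2 fold change -1.21, SE 0.110, edgeR adjusted p = 9.65e-07). Inhibitors of the pathway were lower as well, with pirk at a log2 fold change of -1.38 (edgeR adjusted p = 1.22e-05) and PGRP-LF at a log2 fold change of -1.85 (edgeR adjusted p = 8.08e-06). In insulin and TOR signalling, 3 of 19 members were higher (15.8%, against 6.74% of all genes) and 3 lower (15.8%, against 13.7%). ImpL2, a secreted protein that binds insulin-like peptides, had 58.9, 102 and 69.1 CPM across RNAi-labelled replicates, compared with 15.7, 21.9 and 9.97 CPM across control replicates (log2 fold change 2.28, SE 0.358, edgeR adjusted p = 0.000217). Thor (4E-BP), a translation repressor, was lower, with 99.2, 72.7 and 76.8 CPM in svb RNAi replicates 1 to 3 and 186, 204 and 209 CPM in control replicates 1 to 3 (log2 fold change -1.27, SE 0.147, edgeR adjusted p = 1.15e-05), and the insulin receptor gene InR was lower at a log2 fold change of -0.63 (edgeR adjusted p = 0.00509).

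Of the 43 mitosis genes tested, 13 were higher and none was lower by edgeR or DESeq2, with 1 lower at an unadjusted p under 0.05, and the median log2 fold change was 0.45. fzy (Cdc20), whose span overlaps cact and which starts the destruction of cyclins at anaphase, had 30.4, 32.0 and 32.4 CPM in the RNAi-labelled libraries, against 10.8, 14.5 and 18.7 CPM in control. All RNAi-labelled libraries were above all control libraries (log2 fold change 1.10, SE 0.202, edgeR adjusted p = 0.000883). Top2, the topoisomerase that untangles chromosomes, had 589, 637 and 586 CPM in the libraries labelled svb RNAi and 390.5, 406 and 339 CPM in control (log2 fold change 0.67, SE 0.105, edgeR adjusted p = 0.000208). mars, a spindle protein, and polo, a mitotic kinase, were higher at a log2 fold change of 1.00 (edgeR adjusted p = 0.00110) and 0.70 (edgeR adjusted p = 0.00520), and the kinesin gene Klp61F was at a log2 fold change of 0.65 (edgeR adjusted p = 0.00612). The number higher was 6 without control replicate 3 and 7 without svb RNAi replicate 1. In DNA replication 4 of 38 members were higher (10.5%, against 6.74% of all genes), with a median of 0.42. None was lower by edgeR or DESeq2, with 1 lower at an unadjusted p under 0.05. Calls in the higher direction numbered 0 without control replicate 1 or 3, 1 without svb RNAi replicate 2 or 3 and 2 without svb RNAi replicate 1. Of 24 regulators of the cycle, 3 were higher (12.5%, against 6.74% of all genes) and 3 lower (12.5%, against 13.7% of all genes). CycE, the cyclin that starts S phase, had 4.85, 2.50 and 4.08 CPM across RNAi-labelled replicates, compared with 7.28, 11.3 and 14.3 CPM across control replicates (log2 fold change -1.53, SE 0.346, edgeR adjusted p = 0.00461), and Cdk4, a kinase of G1, was lower at a log2 fold change of -0.91 (edgeR adjusted p = 0.00266). gig (TSC2) and the checkpoint kinase gene mei-41 were higher at a log2 fold change of 0.64 (edgeR adjusted p = 0.00174) and 0.83 (edgeR adjusted p = 0.00369).

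Ribosome biogenesis had the highest share of risen genes of any list with 10 or more tested members. Of 26 members tested, 11 were higher and 1 was lower, and the median log2 fold change was 0.48. Nop60B, the pseudouridine synthase that modifies ribosomal RNA, had 491, 437 and 495 CPM in svb RNAi replicates 1 to 3 and 274, 290.3 and 224 CPM in control replicates 1 to 3. The groups did not overlap (log2 fold change 0.85, SE 0.112, edgeR adjusted p = 4.07e-05). RpI1, the large subunit of RNA polymerase I, had 267, 303 and 306 CPM in the RNAi-labelled libraries, against 158, 180.3 and 153 CPM in control (log2 fold change 0.83, SE 0.116, edgeR adjusted p = 6.72e-05). The RNA helicase genes pit and kz and the nucleolar gene Nop56 were higher at a log2 fold change of 0.60 (edgeR adjusted p = 0.00198), 0.72 (edgeR adjusted p = 0.00474) and 0.62 (edgeR adjusted p = 0.00278). The lower member was Mnt, a repressor that competes with Myc, with 121, 107 and 144 CPM in the libraries labelled svb RNAi and 256, 179.9 and 222 CPM in control (log2 fold change -0.82, SE 0.183, edgeR adjusted p = 0.00422). The count of higher members was 5 without control replicate 3 and 7 without svb RNAi replicate 3. Of the cytosolic ribosomal proteins themselves, 4 of 78 were higher and 1 was lower, a smaller share than over all genes, and the median was 0.08. Their count of higher members was 0 without control replicate 2 or 3 or svb RNAi replicate 1 or 3 and 1 without svb RNAi replicate 2.

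The Polycomb group, which keeps genes silent through chromatin, had 8 of 21 members higher and 1 lower, with a median log2 fold change of 0.30. Su(z)2 (FBgn0265623, chromosome 2R, 12996501 to 13007911, plus strand) had 637, 584 and 708 CPM across RNAi-labelled replicates, compared with 200.2, 187 and 185 CPM across control replicates, 3.37-fold higher and with no overlap (log2 fold change 1.75, SE 0.0991, edgeR adjusted p = 5.54e-09). Its neighbour and relative Psc, a subunit of the same repressive complex, had 484, 439 and 469 CPM in svb RNAi replicates 1 to 3 and 219.8, 214 and 200.3 CPM in control replicates 1 to 3 (log2 fold change 1.14, SE 0.101, edgeR adjusted p = 7.85e-07). Pcl, which helps the complex that methylates histone H3, was higher at a log2 fold change of 0.75 (edgeR adjusted p = 6.41e-05). jing, a zinc finger gene of the list, was the lower member at a log2 fold change of -1.26 (edgeR adjusted p = 8.97e-06). Higher members numbered 3 without control replicate 3, 4 without svb RNAi replicate 2 and 5 without control replicate 1 and lower members 2 without control replicate 2, while Su(z)2, Psc and Pcl were called in all 6 fits without 1 library.

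In ecdysone signalling 3 of 16 members were higher (18.8%, against 6.74% of all genes) and 1 lower (6.25%, against 13.7%). br (Broad; FBgn0283451, chromosome X, 1575132 to 1664869, plus strand), an early gene of the steroid response, had 1989, 1769.9 and 2492 CPM in the RNAi-labelled libraries, against 297, 256 and 313 CPM in control (log2 fold change 2.85, SE 0.159, edgeR adjusted p = 5.11e-09). Its mean was 2084 CPM in the RNAi-labelled libraries, 3500.3 CPM in SvbACT, 70.3 CPM in SvbREP and 289 CPM in control, so the RNAi-labelled level lay between those of SvbACT and control. Mur2B, a gene whose span overlaps br, moved the opposite way (log2 fold change -1.03, edgeR adjusted p = 0.00269). Eip74EF, another early gene, was lower at a log2 fold change of -1.01 (edgeR adjusted p = 3.22e-05). The count of lower members was 2 without control replicate 2 or svb RNAi replicate 3.

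**Figure D5:**
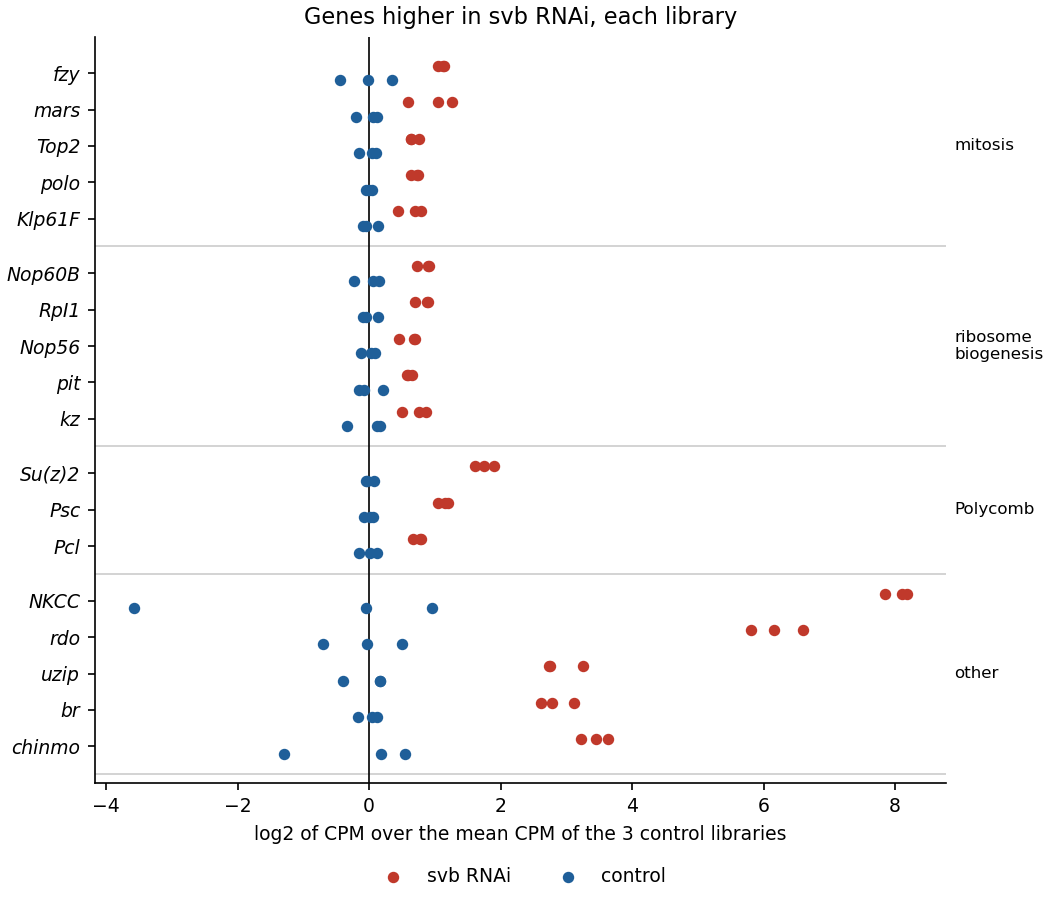
Level of genes that were higher in the libraries labelled svb RNAi, as the log2 of the CPM in each library over the mean CPM of the 3 control libraries (horizontal), with RNAi-labelled libraries in red above control in blue. Most points of mitosis, ribosome biogenesis and Polycomb genes sit about 1 unit or less right of the control mean, and those of Su(z)2 farther, while NKCC and rdo are more than 5 units away.

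The genes with the largest changes were mostly of other kinds. ftz, a pair-rule homeobox gene of the embryo, held 451 counts over the RNAi-labelled libraries and 1 over control, with 21.6, 28.2 and 34.6 CPM in the libraries labelled svb RNAi and 0, 0 and 0.161 CPM in control. The pooled ratio was 491 with an exact 95% counting interval of 87.6 to 19420.5 (edgeR adjusted p = 3.26e-07). The single control count was in replicate 3, so without that library control is at 0. NKCC (FBgn0051547, chromosome 3R, 5489505 to 5502702, minus strand), a sodium-potassium-chloride cotransporter, had 445, 562 and 530.4 CPM across RNAi-labelled replicates, compared with 1.87, 3.76 and 0.161 CPM across control replicates (log2 fold change 8.07, SE 0.457, edgeR adjusted p = 5.54e-09). Its means were 513 CPM in the RNAi-labelled libraries, 3.98 CPM in SvbACT, 4.83 CPM in SvbREP and 1.93 CPM in control, and it was higher than in SvbACT and SvbREP as well (edgeR adjusted p = 1.15e-08 and 1.54e-08). The NKCC log2 fold change was 9.02 without control replicate 2 and 7.47 without control replicate 3. NKCC was the 1 higher member of the ion transport list, and 7 of its 26 tested members were lower (26.9%, against 13.7% of all genes). Nhe2, a sodium-proton exchanger, had 2.42, 1.07 and 3.01 CPM in svb RNAi replicates 1 to 3 and 31.3, 26.0 and 38.4 CPM in control replicates 1 to 3 (log2 fold change -3.87, SE 0.388, edgeR adjusted p = 2.42e-06). The potassium channel gene KCNQ had 38.4, 52.5 and 54.2 CPM in the RNAi-labelled libraries, against 386, 373 and 391 CPM in control (log2 fold change -2.98, SE 0.164, edgeR adjusted p = 4.69e-09). Ncc69, another cation-chloride cotransporter, was lower at a log2 fold change of -1.75 (edgeR adjusted p = 2.67e-05).

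A leucine-rich repeat gene, an adhesion gene and the Hedgehog receptor were among the other large rises. rdo, a leucine-rich repeat gene, had 51.4, 65.6 and 88.8 CPM in the libraries labelled svb RNAi and 0.560, 0.896 and 1.29 CPM in control (log2 fold change 6.17, SE 0.372, edgeR adjusted p = 1.11e-08). ptc, the Hedgehog receptor, had 18.1, 10.5 and 14.2 CPM across RNAi-labelled replicates, compared with 0.187, 1.43 and 0.804 CPM across control replicates (log2 fold change 4.09, SE 0.842, edgeR adjusted p = 0.00229). uzip, a cell adhesion gene, had 119, 121 and 171 CPM in svb RNAi replicates 1 to 3 and 20.1, 13.6 and 20.1 CPM in control replicates 1 to 3 (log2 fold change 2.93, SE 0.249, edgeR adjusted p = 4.58e-07), and Con (Connectin), another adhesion gene, was higher at a log2 fold change of 3.04 (edgeR adjusted p = 5.80e-05). Pde1c, a cyclic nucleotide phosphodiesterase, Octalpha2R, an octopamine receptor, Ir40a, an ionotropic receptor, and Msr-110 were higher at a log2 fold change of 3.18 (edgeR adjusted p = 0.00307), 3.14 (edgeR adjusted p = 0.00132), 3.02 (edgeR adjusted p = 9.07e-05) and 3.10 (edgeR adjusted p = 0.000126). Control replicate 2 held 21.7 CPM of Pde1c, against 1.68 and 2.57 in control replicates 1 and 3, and without it the log2 fold change was 5.16. Without the same library it was 4.72 for ptc and 4.20 for Octalpha2R. The means of Octalpha2R were 23.2 CPM in the RNAi-labelled libraries, 8.40 CPM in SvbACT, 17.5 CPM in SvbREP and 2.63 CPM in control. Its difference from SvbACT (edgeR adjusted p = 0.0817) and from SvbREP (edgeR adjusted p = 0.618) did not pass the test.

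Among the lower genes, stl (FBgn0086408, chromosome 2R, 22807860 to 22815993, plus strand), a secreted metalloprotease of the ADAMTS kind, held 1 count in all RNAi-labelled libraries and 602 in control, a pooled ratio of 553 with an exact 95% counting interval of 98.9 to 21894 (edgeR adjusted p = 2.29e-08). That count was in svb RNAi replicate 3. Tie, a receptor tyrosine kinase, had 0.882, 0.179 and 0.177 CPM in the RNAi-labelled libraries, against 16.0, 17.9 and 12.4 CPM in control (log2 fold change -5.23, SE 0.480, edgeR adjusted p = 9.85e-07). rgn, a lectin gene known for its part in regeneration, had 14.5, 17.0 and 18.8 CPM in the libraries labelled svb RNAi and 326, 302 and 417 CPM in control (log2 fold change -4.37, SE 0.279, edgeR adjusted p = 2.09e-08). mthl14, a G protein-coupled receptor, and Pkg21D, a cyclic GMP-dependent kinase, were abundant in control and low in each RNAi-labelled library. mthl14 had 5.29, 6.43 and 6.56 CPM across RNAi-labelled replicates, compared with 124, 127 and 139 CPM across control replicates (log2 fold change -4.40, SE 0.138, edgeR adjusted p = 2.53e-11). Pkg21D had 5.07, 5.54 and 8.69 CPM in svb RNAi replicates 1 to 3 and 138, 132 and 139.9 CPM in control replicates 1 to 3 (log2 fold change -4.39, SE 0.209, edgeR adjusted p = 1.30e-09). MtnA, a metallothionein, alpha-Est1, an esterase, and AhcyL2, a relative of adenosylhomocysteinase, were lower at a log2 fold change of -5.02 (edgeR adjusted p = 4.22e-06), -4.63 (edgeR adjusted p = 7.81e-06) and -4.63 (edgeR adjusted p = 1.87e-06). Without 1 library the log2 fold change was -6.26 for Tie (svb RNAi replicate 1), -5.95 for MtnA (svb RNAi replicate 2) and -5.79 for AhcyL2 (svb RNAi replicate 3). Of 146 genes given with values in the text, 48 have a span that overlaps another gene of the table, among them mthl14, Pkg21D, rgn, Pde1c, SREBP, Mmp1, Itgbn, KCNQ and fng, and their counts are uncertain where reads could belong to either. Syt4, a synaptotagmin of vesicle release, had 2.87, 1.43 and 0.886 CPM in the RNAi-labelled libraries, against 42.7, 41.6 and 38.0 CPM in control (log2 fold change -4.58, SE 0.593, edgeR adjusted p = 3.48e-05). Its means were 1.73 CPM in the RNAi-labelled libraries, 1.33 CPM in SvbACT, 1.79 CPM in SvbREP and 40.8 CPM in control, so here control was the group that stood apart.

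The genes that Svb is known to control in the epidermis gave no call. Of 11 such genes in the table, 5 had enough counts to be tested and none was called by edgeR or DESeq2, with 1 lower and 0 higher at an unadjusted p under 0.05 and a median log2 fold change of -0.12. Without svb RNAi replicate 1 there was 1 lower. m (miniature), which shapes the cuticle surface, had 3, 2 and 0 counts in the RNAi-labelled libraries and 6, 1 and 0 counts in control, too few to be tested.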

How the data were processed

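RNA of sorted cells was made into libraries with the Ovation SoLo kit and sequenced as single reads of 100 nt on a NovaSeq, per the labels. The deposited values are raw counts of reads per gene. Per the submitters' processing notes, the tools were FastQC 0.11.5, STAR 2.5.2b, HTSeq 0.6.0 and edgeR, with the build dm6. The filter that left 8802 genes in the table is not given in the sources used here.

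Counts were fitted with edgeR 4.0.16 (limma 3.58.1, R 4.3.3): factors by the trimmed mean of M values, filterByExpr (minimum count 10, total 15, proportion 0.7), 1 mean per group over all 12 libraries, the quasi-likelihood test and Benjamini-Hochberg adjustment over 7992 genes, called under 0.05. CPM values use the same factors. SE is the log2 fold change over the root of F. The biological coefficient of variation was 22.9%. Intervals and floors of 3 counts cover counting error only. Replicates differed by more than sampling noise. The fit was tested on simulated counts. Positions and exon lengths come from Ensembl 115 (BDGP6.54, the dm6 sequence), which held 8686 of the 8802 identifiers.

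Alternatives were DESeq2 1.42.0, relative log expression factors, no filter, the 6 libraries alone, the replicate number as a block and each library left out. Genes are named by rule: ovo, the 12 largest changes per direction with a mean of at least 10 CPM in the higher group and no overlap, up to 5 called members per list and direction by p, the first 3 measured members of a list and the most abundant marker. zfh2, Sox21a, bmm, Ugt36D1, Orcokinin, lncRNA:CR44833 and Mur2B were named after their values were seen. Members and lists were chosen with earlier results of these data known. After the counts were read, 1 wrongly matched gene was taken out of the apoptosis list and the name pattern for cytochrome P450 genes was narrowed. Lists share members, such as Dl, Egfr and Stat92E.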

Additional observations from a re-analysis of the deposited data

How the results depend on the processing

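Counts of called genes kept to within 1.5 times under DESeq2 (1787), relative log expression factors (1627), no filter on low counts (1577) and a fit of the 6 libraries alone (1591), against 1633. Leaving out each library in turn gave 1168 to 1569 calls, 269 to 517 higher, 899 to 1052 lower and 552 to 713 against all 3 other groups. With the replicate number as a block there were 2044 calls, 773 higher and 1271 lower. Libraries with the same number deviated together by r = 0.0674, 0.195 and 0.17 across genes, against -0.203 to 0.0781 for libraries with different numbers. Only control replicate 1 correlated best with another number, svb RNAi replicate 3 (0.0781, against 0.0674 with its own). The biological coefficient of variation was 18.1% with the block and 22.9% without it. Whether the numbers mark samples made together was not tested. ovo kept its call, with a log2 fold change between 2.71 and 6.01 without 1 library and 3.32 with the block. Of 136 other genes given as called, 133 kept the call without any 1 library. The sign changed in 3 genes that did not pass the test: without 1 library the log2 fold change ran from -0.70 to 0.73 for NPF, -0.09 to 0.09 for esg and -0.59 to 0.94 for pros, and it was -0.00 for esg with no filter on low counts. Of 55 list medians, 11 changed sign in some fit. List counts that moved by over 1.5 times were, under DESeq2, cytosolic ribosomal proteins (9 higher, against 4) and tRNA synthetases (4 higher, against 2), and under no filter DNA replication (1 higher, against 4) and adhesion (1 higher, against 2). With the block they were cytosolic ribosomal proteins (13 higher, against 4), tRNA synthetases (5 higher, against 2), cytosolic chaperones (5 higher, against 2), glycolysis (3 higher, against 1), autophagy and lysosome (5 lower, against 2), enterocyte markers (2 higher and 6 lower, against 0 and 2), enteroendocrine markers (4 higher, against 1, with Orcokinin among them at adjusted p = 0.0160), neuron markers (3 lower, against 1, as with the 6 libraries alone) and the proteasome (2 higher, against 0), and the other list counts that passed this ratio in these fits moved by 1 gene. With totals of 4298998 to 6575392 counts, differences at or under 3 counts a library were not detectable.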

Other observations

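Genes that mark positions along the gut were lower in 4 cases and higher in 2, of 16 tested. Over all genes tested, 13.7% were lower and 6.74% higher. GATAe, the GATA factor of the endodermal gut, had 193, 177 and 162 CPM in the libraries labelled svb RNAi and 401, 469 and 403 CPM in control, with no overlap (log2 fold change -1.26, SE 0.115, edgeR adjusted p = 9.89e-07). dve, a homeobox gene of the middle midgut, had 31.7, 17.2 and 23.4 CPM across RNAi-labelled replicates, compared with 82.5, 112 and 95.1 CPM across control replicates (log2 fold change -2.01, SE 0.241, edgeR adjusted p = 1.60e-05). fkh and vnd were lower at a log2 fold change of -0.64 (edgeR adjusted p = 0.00317) and -0.84 (edgeR adjusted p = 0.000117). The Hox gene Abd-B, which acts at the posterior end of the body, had 20.7, 17.0 and 12.1 CPM in svb RNAi replicates 1 to 3 and 4.85, 4.12 and 4.83 CPM in control replicates 1 to 3 (log2 fold change 1.84, SE 0.490, edgeR adjusted p = 0.0134), but its call was lost without svb RNAi replicate 1 (edgeR adjusted p = 0.0654). Higher members of the list numbered 1 without svb RNAi replicate 1. In calcium signalling 8 of 19 genes were lower (42.1%, against 13.7% of all genes) and 2 higher (10.5%, against 6.74%). The higher ones numbered 0 without svb RNAi replicate 1 or 3 and 1 without control replicate 1, 2 or 3 or svb RNAi replicate 2. Calx, a sodium-calcium exchanger, had 15.0, 24.7 and 24.5 CPM in the RNAi-labelled libraries, against 215, 237 and 269 CPM in control (log2 fold change -3.48, SE 0.177, edgeR adjusted p = 2.29e-09), and all RNAi-labelled libraries lay far below control. Orai, the store-operated calcium channel, and Itpr, which releases calcium from the endoplasmic reticulum, were lower at a log2 fold change of -1.14 (edgeR adjusted p = 5.01e-05) and -0.95 (edgeR adjusted p = 1.42e-05).

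Of 13 circadian genes 4 were lower (30.8%, against 13.7% of all genes). None was higher by edgeR, DESeq2 or at an unadjusted p under 0.05. The clock activator gene Clk had 67.0, 50.0 and 59.6 CPM in the libraries labelled svb RNAi and 177, 179 and 181 CPM in control (log2 fold change -1.61, SE 0.219, edgeR adjusted p = 5.65e-05), and per, which represses the clock, was lower at a log2 fold change of -0.96 (edgeR adjusted p = 0.000249). In the piRNA pathway 5 of 18 genes were higher (27.8%, against 6.74% of all genes) and 1 lower (5.56%, against 13.7%). AGO3 and spn-E, which act in piRNA production in the germline, were higher at a log2 fold change of 1.21 (edgeR adjusted p = 0.000189) and 1.39 (edgeR adjusted p = 0.00106). piRNA members called higher numbered 2 without control replicate 3 and 3 without control replicate 1 or 2 or svb RNAi replicate 2 or 3, and those called lower 0 without control replicate 1 or 3 or svb RNAi replicate 2. The glycolytic gene pair Gapdh1 and Gapdh2 moved apart, at a log2 fold change of -0.57 (edgeR adjusted p = 0.00101) and 0.62 (edgeR adjusted p = 0.000259), and reads of these similar genes may be split between them. Ugt36D1, like Syt4, was low in every transgene group, with means of 0.193 CPM in the RNAi-labelled libraries, 0.447 CPM in SvbACT, 0.285 CPM in SvbREP and 9.10 CPM in control. Over chromosome arms X, 2L, 2R, 3L and 3R, between 6.25% and 7.90% of tested genes were higher and between 12.7% and 15.2% lower.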
